A study of Homo sapiens with 12 samples.

Results

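The 9 genes *TXNIP*, *ARRDC4*, *PIK3IP1*, *FOXO1*, *TP53INP1*, *CCNG2*, *BCL6*, *FBXO32* and *CITED2*, a set linked to FOXO factors and starvation, were followed across *LAPTM4B* knockdown and serum withdrawal in Calu-6 cells, an established human lung cancer line. They were picked by symbol from the 18417 genes with a feature that carries 1 gene symbol, and where a gene has several such features the one with the highest mean over the 12 arrays stands for it. Each of the 9 had 1 such feature, so none was lost. The cells were from a single line. They received *LAPTM4B* siRNA (siLAPTM4B) or scrambled siRNA (siControl) with Lipofectamine RNAiMAX, and one day later were kept without serum (0% FBS) or with 10% FBS. The 4 groups, with 3 replicates each, were siLAPTM4B without serum, siControl without serum, siLAPTM4B with 10% FBS and siControl with 10% FBS. RNA was isolated at 72 h of transfection, when the cells had spent 48 h in that medium, and was hybridised to Affymetrix Human Gene 1.0 ST arrays. Values are RMA signals on the log2 scale. A gene was called changed where limma's p, adjusted by Benjamini-Hochberg over the 19460 features with 1 symbol, was under 0.05. Errors after a mean are the SD over 3 arrays, and errors after a difference are its standard error (SE).

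FOXO factors are forkhead transcription factors that insulin and growth factors hold in check. When PI3K and AKT are active, AKT phosphorylates FOXO proteins and they leave the nucleus, and when growth factors are withdrawn they return and switch on genes of cell cycle exit, autophagy, protein breakdown and stress resistance. *TXNIP* and *ARRDC4* encode alpha-arrestins that limit glucose uptake, and both are also known targets of MondoA and ChREBP, factors that read the level of glucose metabolites through paired E-box-like sequences.

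RefSeq promoter windows (build GRCh38.p14, 250 bases before to 50 after a start site) were used for 7 of the 9 genes, 12 windows in all. Those of *TP53INP1* and *FBXO32*, which both rose on serum withdrawal, were not searched. Both strands of the windows were searched for the FOXO motif GTAAACA, the E-box CACGTG and 2 copies of CACGNG held 5 bases apart. That pair is the layout of a carbohydrate response element. A CACGTG also matches CACGNG. Of 35116 windows of the same length, 3.42% held GTAAACA, 7.26% held CACGTG and 0.0570% held the pair. Stretches are printed for *TXNIP* and *PIK3IP1*, which held the FOXO motif, for *ARRDC4*, the other alpha-arrestin, and for *CCNG2*, which rose on serum withdrawal. Those of *ARRDC4* and *CCNG2* held a single CACGTG, and neither GTAAACA nor the pair. Capitals mark the motifs.
TXNIP: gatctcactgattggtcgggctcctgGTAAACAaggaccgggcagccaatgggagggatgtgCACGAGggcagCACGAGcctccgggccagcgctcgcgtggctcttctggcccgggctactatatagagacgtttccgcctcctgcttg
ARRDC4: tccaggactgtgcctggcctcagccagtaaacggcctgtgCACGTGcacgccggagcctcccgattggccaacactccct
CCNG2: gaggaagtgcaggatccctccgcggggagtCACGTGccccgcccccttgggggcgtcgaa
PIK3IP1: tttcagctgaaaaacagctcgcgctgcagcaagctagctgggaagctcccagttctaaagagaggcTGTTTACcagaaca

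The *TXNIP* stretch is chr1:145996580-145996729, minus strand, and ends at the base before the start site. It held GTAAACA 124 bases upstream and the pair of CACGNG letters 88 bases upstream of the start. The *ARRDC4* stretch, chr15:97960453-97960532, plus strand, held CACGTG 210 bases upstream, and the *CCNG2* stretch, chr4:77157147-77157206, plus strand, held it 30 bases upstream. The *PIK3IP1* stretch, chr22:31292459-31292538, minus strand, held the FOXO motif on its opposite strand, which reads TGTTTAC here, 17 bases downstream of one of its start sites. One window of *CITED2* held CACGTG 153 bases upstream, and the windows of *BCL6* and *FOXO1* held none of the 3. These matches are descriptions of letters and no binding was measured.

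*LAPTM4B* itself averaged 10.49 ± 0.045 in siLAPTM4B cells without serum, against 11.91 ± 0.037 in siControl cells without serum, and 10.01 ± 0.024 in siLAPTM4B cells with 10% FBS, against 11.77 ± 0.024 in siControl cells with 10% FBS, lower under its siRNA in both media as labelled. Of 6 epithelial markers, the keratins *KRT8* (12.76 to 12.99) and *KRT18* (12.14 to 12.35) were bright on all 12 arrays. Both averaged higher in siLAPTM4B than in siControl cells in either medium, *KRT8* at 12.96 against 12.78 without serum and 12.98 against 12.83 with 10% FBS. *KRT7* (9.11 to 11.17) and *EPCAM* (8.20 to 9.89) varied widely, and *CDH1*, the epithelial cadherin, lay between 6.10 and 6.29, under the lower quartile of feature means (6.87). *KRT7* was lower without serum, at 9.14 in siLAPTM4B and 9.51 in siControl cells, against 11.03 and 11.14 with 10% FBS, while *EPCAM* was higher, at 9.67 and 9.46 against 8.88 and 8.37. The mesenchymal filament *VIM* was bright (13.15 to 13.30). Of 5 leukocyte markers 3 lay under the quartile, *PTPRC* among them, while *CD68* (9.94 to 10.69) and *CD14* (7.12 at its lowest) did not, and of 3 endothelial markers 2 did, *PECAM1* among them, while *CDH5* (7.16 to 7.43) did not. The mean over 7 mesenchymal markers was lower without serum, at 7.96 in siLAPTM4B and 8.03 in siControl cells, against 8.42 and 8.52 with 10% FBS, and only *LUM* (6.51 to 9.14) and *PDGFRB* (7.60 to 9.31) among the 7 varied widely over the arrays. The part of these markers in the results below was not tested, and bulk RNA cannot tell fewer cells of one kind from less RNA per cell.

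Serum withdrawal moved 4 of the 9 genes upwards in both siLAPTM4B and siControl cells, and the 4 were the same: *TP53INP1*, *FBXO32*, *CCNG2* and *BCL6*. *TXNIP*, *ARRDC4*, *PIK3IP1* and *CITED2* passed the test in neither, and *FOXO1* fell in siControl cells. In siLAPTM4B cells 4 were higher and 0 lower, with 9.74% of all features tested called higher and 11.0% lower. At an unadjusted limma p under 0.05, 5 were higher and 1 was lower there. Shares of all features, here and below, belong to the adjusted limma threshold, and none was counted at this unadjusted one. A Student's t-test gave 4 and 0 after adjustment. It is called the methods' t-test here, since the study names that test for its cell experiments. The study does not name the test behind its array gene lists, so this t-test need not reproduce them. In siControl cells 4 were higher and 1 was lower, where 13.2% of all features were called higher and 12.9% lower. The median log2 change of the 9 was 0.23 in siLAPTM4B and 0.20 in siControl cells, and over all features it was -0.0058 and -0.015. The withdrawal comparisons share no array.

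**Figure D1:**
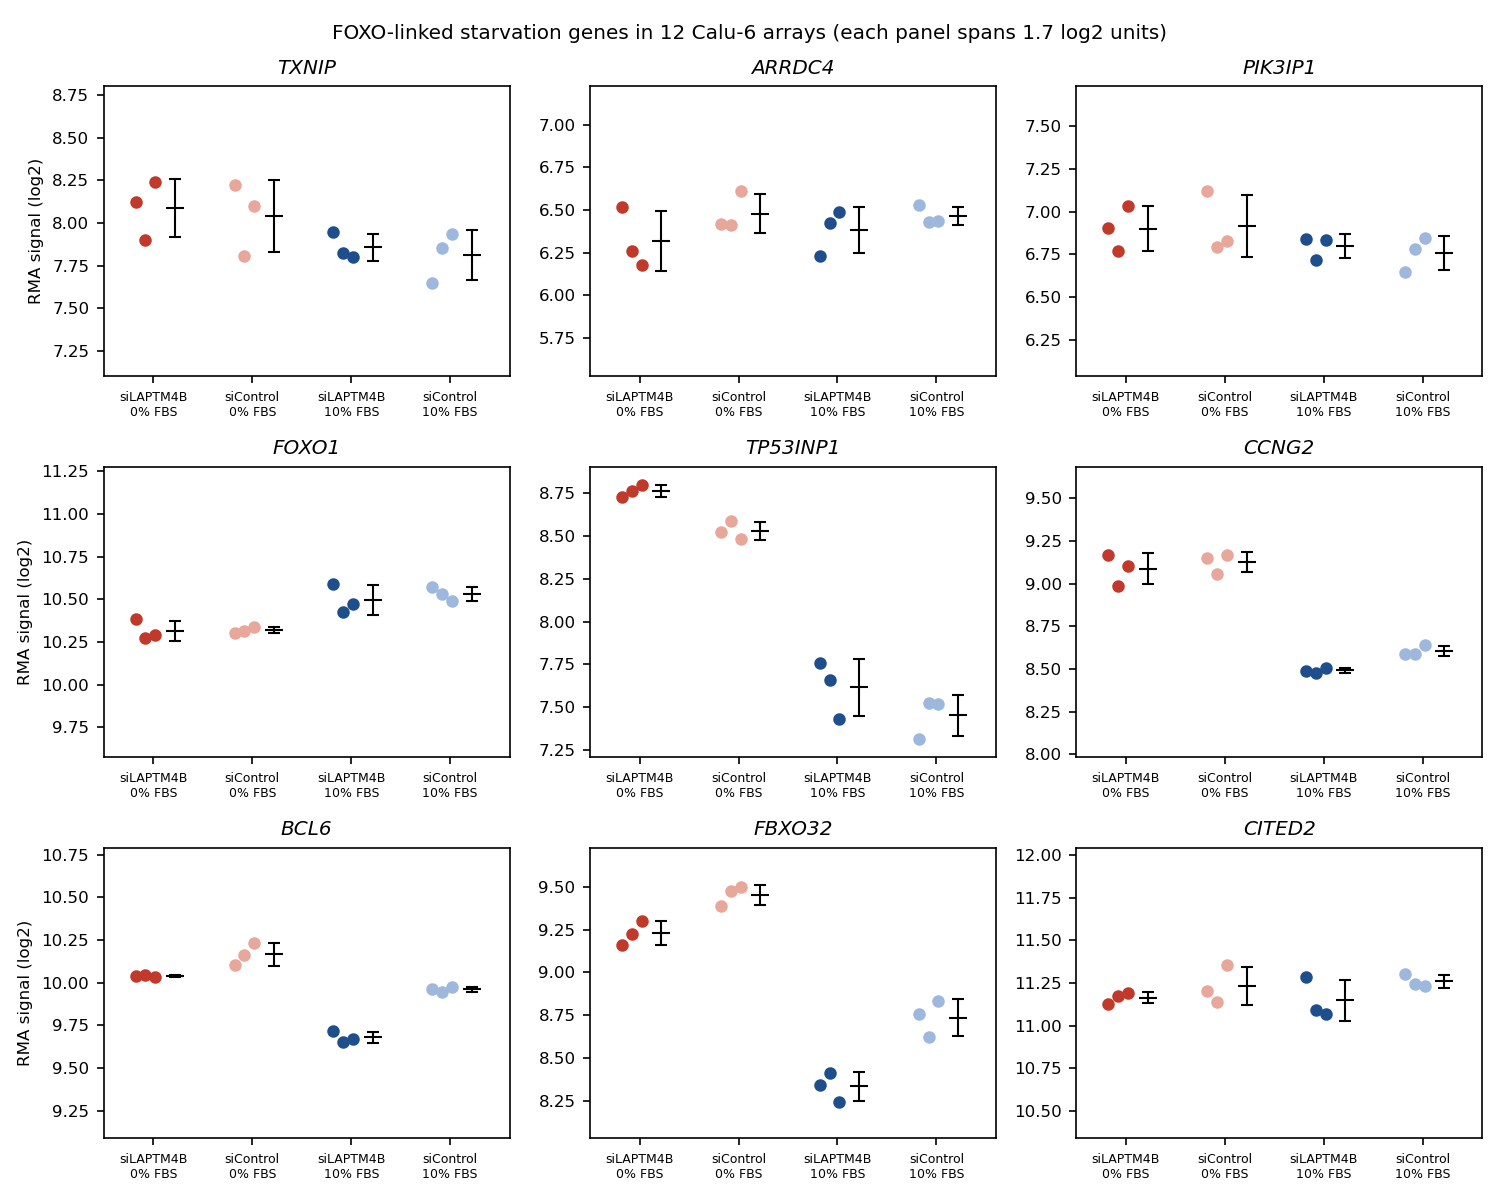
RMA signal (log2, vertical axis) of the 9 genes on each of the 12 arrays, by siRNA and serum. Coloured points are single arrays, black bars the mean ± SD of 3, and every panel spans the same log2 range; *TP53INP1*, *FBXO32* and *CCNG2* sit clearly higher without serum, while the *TXNIP*, *ARRDC4*, *PIK3IP1* and *CITED2* arrays overlap between the media.

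*TP53INP1*, a p53-induced stress protein that takes part in autophagy, moved most. Its signals were 8.73, 8.76 and 8.80 in siLAPTM4B and 8.52, 8.59 and 8.48 in siControl cells without serum, against 7.76, 7.66 and 7.43 in siLAPTM4B and 7.31, 7.52 and 7.52 in siControl cells with 10% FBS. No array without serum came near one with serum. The log2 change on withdrawal was 1.15 (SE 0.08, a 2.22-fold rise) in siLAPTM4B cells and 1.08 (SE 0.06, 2.11-fold) in siControl cells, places 57 and 103 from the top of 18417 genes. The groups ranked siLAPTM4B without serum, siControl without serum, siLAPTM4B with serum, siControl with serum, and only the last pair of neighbours overlapped. An exact two-sided permutation test of 3 arrays against 3 can reach no p below 0.1, the value it gave for every pair of groups reported here as not overlapping.

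*FBXO32* (atrogin-1), the substrate-binding F-box subunit of a ubiquitin ligase known from muscle wasting, read 9.16, 9.22 and 9.30 in siLAPTM4B and 9.39, 9.47 and 9.50 in siControl cells without serum. With 10% FBS it read 8.34, 8.41 and 8.24 in siLAPTM4B and 8.76, 8.62 and 8.83 in siControl cells. All 4 groups stood apart from each other, with siControl without serum the highest and siLAPTM4B with serum the lowest. Withdrawal raised it by 0.90 (SE 0.06, 1.86-fold) in siLAPTM4B cells and by 0.72 (SE 0.06, 1.65-fold) in siControl cells.

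*CCNG2*, an atypical cyclin linked to leaving the cell cycle, read 9.17, 8.99 and 9.10 in siLAPTM4B and 9.15, 9.06 and 9.17 in siControl cells without serum, and 8.49, 8.48 and 8.51 in siLAPTM4B and 8.59, 8.59 and 8.64 in siControl cells with 10% FBS. The media did not overlap under either siRNA. The rise was 0.59 (SE 0.06) in siLAPTM4B and 0.52 (SE 0.05) in siControl cells.

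*BCL6*, a transcriptional repressor, showed a smaller change with very tight replicates. It read 10.04, 10.04 and 10.04 in siLAPTM4B and 10.10, 10.16 and 10.23 in siControl cells without serum, against 9.72, 9.65 and 9.67 in siLAPTM4B and 9.96, 9.95 and 9.97 in siControl cells with 10% FBS. Here too the 4 groups were separate, in the same order as for *FBXO32*. Withdrawal raised it by 0.36 (SE 0.05, limma adjusted p = 0.000545) in siLAPTM4B cells and by 0.20 (SE 0.05, limma adjusted p = 0.0121) in siControl cells. The call in siControl cells was lost without siControl replicate 2 with 10% FBS (0.20, limma adjusted p = 0.0507).

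*FOXO1*, the factor itself, ran the other way. It read 10.38, 10.27 and 10.29 in siLAPTM4B and 10.30, 10.32 and 10.34 in siControl cells without serum, against 10.59, 10.42 and 10.47 in siLAPTM4B and 10.57, 10.53 and 10.49 in siControl cells with 10% FBS. The media did not overlap in either siRNA, while the siRNAs overlapped in either medium. The log2 change was -0.18 (SE 0.06, limma adjusted p = 0.0659) in siLAPTM4B cells and -0.21 (SE 0.04, limma adjusted p = 0.0062) in siControl cells, where the call was made. Its mRNA says nothing of where the protein is, which is the regulated step in the pathway.

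*TXNIP* did not pass the test in any of the comparisons. Its signals were 8.12, 7.90 and 8.24 in siLAPTM4B and 8.22, 7.81 and 8.10 in siControl cells without serum, against 7.95, 7.82 and 7.80 in siLAPTM4B and 7.65, 7.86 and 7.93 in siControl cells with 10% FBS. Replicate 2 read lowest in both groups without serum, and the media overlapped in both siRNAs. The withdrawal change was 0.23 (SE 0.08, 95% interval 0.04 to 0.42, limma adjusted p = 0.0879) in siLAPTM4B cells and 0.23 (SE 0.11, -0.03 to 0.48, limma adjusted p = 0.182) in siControl cells. Without that replicate 2 it became 0.32 (limma adjusted p = 0.0173) in siLAPTM4B cells and 0.35 (limma adjusted p = 0.0341) in siControl cells, past the threshold in both. Other arrays left out lowered it, to 0.15 (limma adjusted p = 0.253) without siLAPTM4B replicate 3 in serum-free medium, and in siControl cells to 0.14 (limma adjusted p = 0.423) without replicate 1 in serum-free medium and to 0.15 (limma adjusted p = 0.418) without replicate 1 with 10% FBS. Its SD over 3 arrays without serum, 0.17 in siLAPTM4B and 0.21 in siControl cells, was above that of *BCL6*, *CCNG2* or *FOXO1*.

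*PIK3IP1*, a membrane protein that inhibits PI3K, was dim, with a mean of 6.84 over the arrays. It read 6.90, 6.77 and 7.03 in siLAPTM4B and 7.12, 6.79 and 6.83 in siControl cells without serum, against 6.84, 6.72 and 6.83 in siLAPTM4B and 6.65, 6.78 and 6.85 in siControl cells with 10% FBS. The groups overlapped throughout, and the withdrawal changes were 0.10 (SE 0.07) in siLAPTM4B cells and 0.16 (SE 0.09) in siControl cells. With 1 array left out they ran from 0.038 to 0.17 in siLAPTM4B and from 0.053 to 0.22 in siControl cells, without a call. *ARRDC4*, the other alpha-arrestin of the set, had a mean of 6.41 and arrays between 6.18 and 6.61. Its withdrawal changes were -0.06 (SE 0.10) in siLAPTM4B and 0.01 (SE 0.06) in siControl cells. Both means lie under the lower quartile of feature means. *CITED2*, a CBP and p300 binding cofactor that restrains HIF1, was bright, between 11.07 and 11.35, and its withdrawal changes were 0.02 (SE 0.06) and -0.03 (SE 0.06) in siLAPTM4B and siControl cells.

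**Figure D2:**
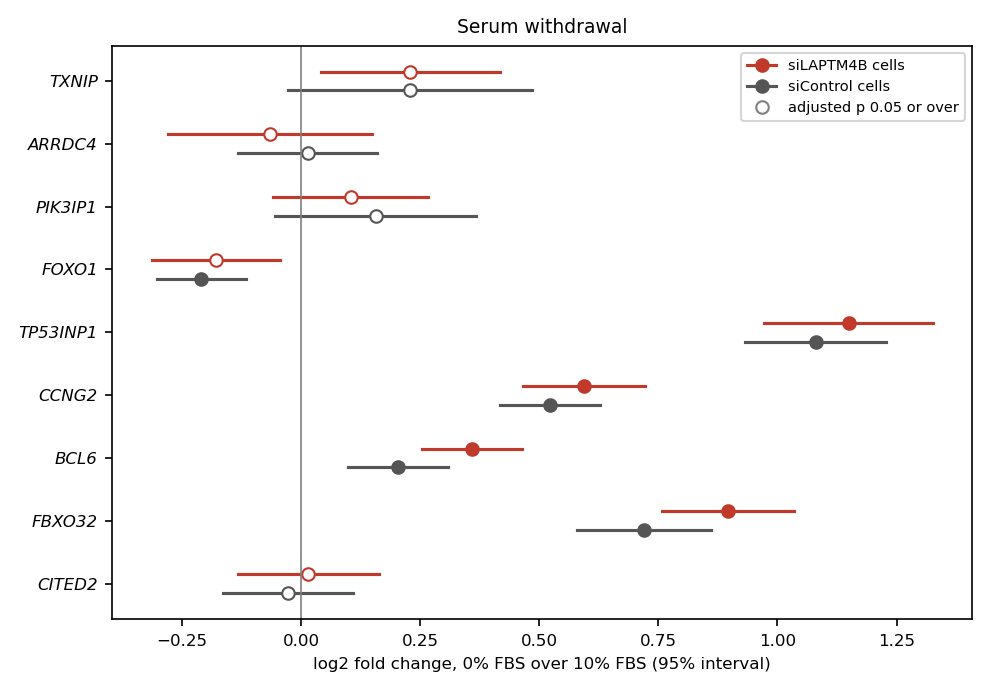
Log2 change on serum withdrawal (0% FBS over 10% FBS, horizontal axis) of each gene, in siLAPTM4B and siControl cells, with 95% intervals from limma. Filled points passed the adjusted p threshold; *TP53INP1*, *FBXO32*, *CCNG2* and *BCL6* lie to the right in both, *FOXO1* to the left.

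*LAPTM4B* knockdown moved few of the genes. Without serum, 1 of the 9 was higher and 0 were lower in siLAPTM4B than in siControl cells, against 0.591% and 1.74% of all features. At an unadjusted limma p under 0.05, 1 was higher and 2 were lower. Student's t-test called 1 and 0 at an unadjusted p under 0.01 and 0 in either direction after adjustment. The study's own list of array genes without serum holds *TP53INP1* as higher and *FBXO32* as lower. For *FBXO32* the t-test used here therefore did not reproduce that list. With 10% FBS, 0 were higher and 2 lower, against 1.99% and 2.09% of all features. The counts were 0 and 3 at an unadjusted limma p under 0.05, where no share of all features was counted. By the methods' t-test they were 0 and 3 at an unadjusted p under 0.01, where 1300 features were called. After adjustment they were 0 and 1, with 177 features called. The median log2 change of the 9 was -0.040 without serum and -0.083 with 10% FBS, against 0.0068 and 0.0043 over all features.

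The lower genes with serum were *FBXO32* and *BCL6*. *FBXO32* changed by -0.40 (SE 0.07, limma adjusted p = 0.0162), which is 1.32-fold lower, with siLAPTM4B arrays at 8.24 to 8.41 and siControl arrays at 8.62 to 8.83. *BCL6* changed by -0.28 (SE 0.04, limma adjusted p = 0.0121). They stood at places 103 and 274 from the lowest of the 18417 genes. The *FBXO32* call was lost without siControl replicate 3 (-0.36), siLAPTM4B replicate 1 (-0.41) or siLAPTM4B replicate 3 (-0.36), at limma adjusted p from 0.0526 to 0.0744. The same call was lost with all features tested (limma adjusted p = 0.0646) and by the methods' t-test after adjustment (t-test adjusted p = 0.127). The *BCL6* call was lost without siControl replicate 2 (-0.29), siControl replicate 3 (-0.27) or siLAPTM4B replicate 3 (-0.28), at limma adjusted p from 0.0554 to 0.0617. Without serum the same 2 genes were lower with no overlap, by -0.23 (SE 0.05, limma adjusted p = 0.0759) for *FBXO32* and -0.13 (SE 0.05, limma adjusted p = 0.254) for *BCL6*, but did not pass. *FBXO32* did pass there with the replicate number as a block (limma adjusted p = 0.0356), after dropping dim features (0.0477) and under a robust prior with trend (0.0148).

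*TP53INP1* was higher without serum, by 0.23 (SE 0.05, limma adjusted p = 0.0429), with siLAPTM4B arrays at 8.73 to 8.80 above siControl arrays at 8.48 to 8.59. This call was lost when any single array was left out, with changes between 0.21 and 0.26 and limma adjusted p between 0.0749 and 0.163. With 10% FBS it changed by 0.16 (SE 0.09, limma adjusted p = 0.402), with overlap. *CCNG2* did not overlap with serum, at -0.11 (SE 0.04, limma adjusted p = 0.216), and was at -0.04 (SE 0.06) without it, passing in neither. With serum it did pass the methods' t-test at an unadjusted p under 0.01. *TXNIP* changed by 0.05 without serum (SE 0.11, 95% interval -0.22 to 0.31) and by 0.04 with it (SE 0.08, -0.13 to 0.22), intervals that hold both a fall and a rise. The other 4 genes lay between -0.16 and 0.04 in both media and did not pass.

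**Figure D3:**
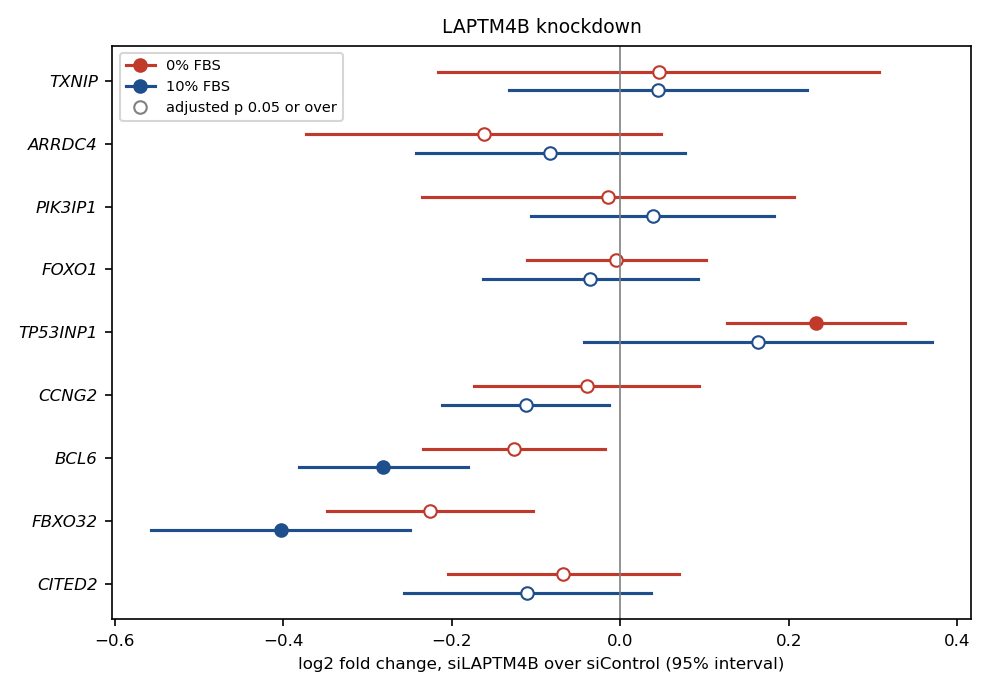
Log2 change with *LAPTM4B* knockdown (siLAPTM4B over siControl, horizontal axis) of each gene, without serum and with 10% FBS, with 95% intervals from limma. Filled points passed the adjusted p threshold: *TP53INP1* without serum, and *FBXO32* and *BCL6* with serum.

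Whether knockdown acted differently in the 2 media was tested by the interaction over all 12 arrays, where a positive value means that siLAPTM4B over siControl was higher without serum than with it. None of the 9 passed in limma (0 higher, 0 lower, against 0.0719% and 0.190% of all features), and 1 had an unadjusted p under 0.05, *BCL6* at 0.16 (SE 0.06, limma adjusted p = 0.355). The count was also 0 in each of the other fits tried. The values ran from -0.08 to 0.18, the highest that of *FBXO32* (SE 0.09). *TXNIP* was at 0.0010 (SE 0.15, 95% interval -0.33 to 0.34). Thus a call of *FBXO32* or *BCL6* with serum and not without it is not shown to be a difference between the media.

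The gene most like *TXNIP* over the 12 arrays was another of the 9. Among 18416 other genes *PIK3IP1* had the highest Pearson correlation with it (r = 0.89), followed by *OLFM2* (0.84), *PDK1* (0.83), *P4HA2* (0.83) and *SULT1C4* (0.83). *PDK1* encodes a kinase that shuts down pyruvate dehydrogenase and *P4HA2* a collagen prolyl hydroxylase. The arrays fall into 4 groups, and r of the deviations from the group means was 0.85 for *PIK3IP1*, 0.70 for *OLFM2*, 0.88 for *PDK1*, 0.87 for *P4HA2* and 0.81 for *SULT1C4*. These 5 were chosen by their r on the same arrays, so the second r is no separate support. Of these, *PDK1* rose on withdrawal by 0.47 (SE 0.05) in siLAPTM4B and 0.45 (SE 0.08) in siControl cells, *P4HA2* by 0.20 and 0.37, and *OLFM2* by 0.31 and 0.26. *SULT1C4* (0.11 and 0.05) and *PIK3IP1* passed in neither. *SULT1C4* was dim, with group means from 4.98 to 5.11, and the mean of *PIK3IP1* over the arrays also lay under the lower quartile of feature means. The other genes of the set stood further down the list, *CCNG2* at place 255 (r = 0.71), *TP53INP1* at 335 (0.69), *FBXO32* at 1995 (0.56), *BCL6* at 3346 (0.43), *CITED2* at 7223 (0.092), *ARRDC4* at 12090 (-0.24) and *FOXO1* at 16609 (-0.57). With *TP53INP1*, r was 0.92 for *CCNG2*, 0.84 for *FBXO32* and -0.88 for *FOXO1*, and *CCNG2* and *FBXO32* stood at places 707 and 1420 of the 18416 genes, so many genes outside the set lay closer. These are descriptions over arrays that share groups and normalization.

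**Figure D4:**
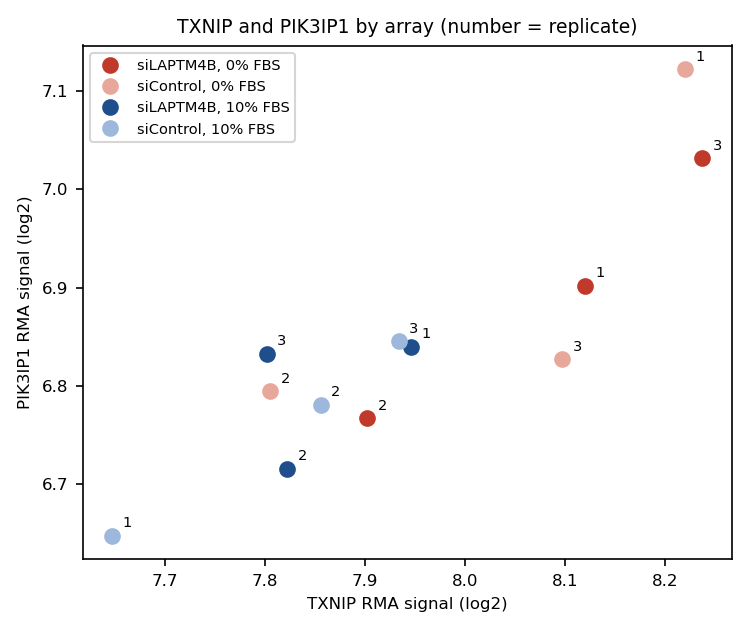
*TXNIP* (horizontal) against *PIK3IP1* (vertical) RMA signal in log2 units, 1 point per array, coloured by group and numbered by replicate. The signals run together (r = 0.89 over 12 arrays), with replicate 2 low in both groups without serum.

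The pathway around the 9 was read through lists written from general knowledge but with earlier results of these data known, each gene by its own feature. Their counts beside the shares of all features are therefore descriptions and no separate support. Of 4 FOXO factors 3 were measured, and apart from *FOXO1* neither *FOXO3* nor *FOXO4* passed in any comparison. *FOXO3* changed by 0.01 (SE 0.06) on withdrawal in both siRNAs.

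Of 21 genes of insulin receptor, PI3K and AKT signalling, 16 were measured. On withdrawal 4 were higher and 5 lower in siLAPTM4B cells, where 9.74% and 11.0% of all features were called, and 3 were higher and 6 lower in siControl cells, where 13.2% and 12.9% were. *PIK3R3*, a regulatory PI3K subunit, rose by 0.68 (SE 0.10) in siLAPTM4B and 0.81 (SE 0.07) in siControl cells, and the receptor adaptor *IRS2* by 0.29 and 0.34. The other adaptor, *IRS1*, changed by -0.67 (SE 0.06) and -0.79 (SE 0.04), and *SGK1*, a serum-induced kinase related to AKT, by -1.18 (SE 0.05) and -0.96 (SE 0.04). *INPP4B*, a lipid phosphatase that opposes the pathway, changed by -0.50 and -0.35. *INSR*, the insulin receptor, rose by 0.20 and 0.27. *PIK3CD*, a catalytic PI3K subunit, rose by 0.27 (SE 0.06) in siLAPTM4B cells and was at 0.10 (SE 0.04) in siControl cells, where it did not pass. Its rise in siLAPTM4B cells was not called by the methods' t-test after adjustment (t-test adjusted p = 0.0546). With knockdown 1 of the 16 was called, *SGK1* without serum (-0.29, SE 0.04, limma adjusted p = 0.0120). That call was lost without siControl replicate 2 (-0.30), siControl replicate 3 (-0.27) or siLAPTM4B replicate 2 (-0.29), at limma adjusted p from 0.0528 to 0.067. It was also lost with all features tested (limma adjusted p = 0.0535) and by the methods' t-test after adjustment (t-test adjusted p = 0.0646).

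All 35 other genes known as FOXO targets were measured. *INSR* and *IRS2* are also in the signalling list above, so their rises are counted in both. On withdrawal 14 were higher and 4 lower in siLAPTM4B cells (9.74% and 11.0% of all features), and 13 were higher and 3 lower in siControl cells (13.2% and 12.9%), with list medians of 0.07 and 0.13. *PDK4*, a kinase that spares glucose by inhibiting pyruvate dehydrogenase, rose by 1.40 (SE 0.06) and 1.56 (SE 0.06), a 2.64-fold and a 2.95-fold rise. *KLHL24* rose by 0.67 and 0.81, the autophagosome gene *GABARAPL1* by 0.61 and 0.79, and *DEPP1* by 0.63 and 0.55. Against these, *TNFSF10*, which encodes the death ligand TRAIL, changed by -1.01 (SE 0.08) and -1.94 (SE 0.08), *PCK1*, the gluconeogenic enzyme, by -0.57 and -1.05, and the mitochondrial superoxide dismutase *SOD2* by -0.24 and -0.28. So the list did not move one way. *TNFSF10* was dim, with means of 5.51 in siLAPTM4B and 5.67 in siControl cells without serum and 6.52 in siLAPTM4B cells with serum, all under the lower quartile of 6.87, against 7.61 in siControl cells with serum. Without siLAPTM4B replicate 2 in serum-free medium the *SOD2* call in siLAPTM4B cells was lost (-0.22, limma adjusted p = 0.0608). In those cells the methods' t-test after adjustment called neither *SOD2* (t-test adjusted p = 0.0502) nor *PCK1* (t-test adjusted p = 0.0525).

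With knockdown without serum, 0 of those 35 were higher and 1 lower (0.591% and 1.74% of all features). At an unadjusted limma p under 0.05 the counts were 2 and 6, with no share of all features counted at that threshold. The lower one was *CDKN1A*, the p21 cell cycle inhibitor (-0.53, SE 0.05, limma adjusted p = 0.00230). With 10% FBS 1 was higher, *ATG14*, an autophagy subunit (0.37), and 3 were lower, *TNFSF10* (-1.09, SE 0.10), *PCK1* (-0.55) and *CDKN1A* (-0.45), beside 1.99% and 2.09% of all features. The *ATG14* call was lost without siLAPTM4B replicate 3 (0.36, limma adjusted p = 0.0572). By the methods' t-test after adjustment none of these knockdown calls held. *CDKN1A* had a t-test adjusted p of 0.0646 without serum. With 10% FBS the t-test adjusted p was 0.0554 for *CDKN1A*, 0.0655 for *TNFSF10*, 0.0895 for *PCK1* and 0.0859 for *ATG14*. In the interaction 1 was called, *TNFSF10*.

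The glucose-sensing side held 13 measured genes of 14 around MondoA, ChREBP, the alpha-arrestins and glucose uptake. On withdrawal 6 were higher and 1 lower in siLAPTM4B cells, beside 9.74% and 11.0% of all features, and 7 were higher and 2 lower in siControl cells, beside 13.2% and 12.9%. *HK2*, the first enzyme of glycolysis, rose by 0.97 (SE 0.06) and 0.86 (SE 0.05), the glucose transporter *SLC2A3* by 0.60 and 0.55, and *GDF15*, a stress cytokine, by 0.82 and 1.17. The mitochondrial thioredoxin *TXN2* changed by -0.31 and -0.39, and *PFKFB3*, which makes an activator of glycolysis, by -0.32 in siControl cells. The alpha-arrestin *ARRDC1* rose by 0.33 (SE 0.06) and 0.26 (SE 0.05), and *ARRDC2* by 0.26 (SE 0.06) and 0.31 (SE 0.04), while *TXNIP* and *ARRDC4* passed the test in neither. *ARRDC3* was called higher in siControl cells (means 9.93 without serum and 9.76 with 10% FBS) but not in siLAPTM4B cells (9.99 and 9.85). With knockdown without serum, *SLC2A3* was higher (0.22) and *GDF15* lower (-0.56). The *SLC2A3* call was lost when any single array was left out (0.19 to 0.25, limma adjusted p 0.0797 to 0.178), and that of *GDF15* without siControl replicate 3 (-0.53, limma adjusted p = 0.0508) or siLAPTM4B replicate 2 (-0.54, limma adjusted p = 0.0638). Both calls were lost with all features tested (limma adjusted p = 0.135 and 0.0652) and by the methods' t-test after adjustment (t-test adjusted p = 0.112 and 0.152). That of *SLC2A3* was also lost with arrays centred on their medians (limma adjusted p = 0.0568). With serum, *TXN*, the thioredoxin that TXNIP binds, was lower (-0.30, SE 0.05, limma adjusted p = 0.0136). That call was lost without siControl replicate 2 (-0.29) or replicate 3 (-0.28), at limma adjusted p of 0.0766 and 0.0604. It was also lost with all features tested (limma adjusted p = 0.0508) and by the methods' t-test after adjustment (t-test adjusted p = 0.0655). Of 14 measured paralogues and protein partners of the 9 genes, 1 passed in any comparison, the coactivator *CREBBP* on withdrawal in siControl cells (-0.22, SE 0.05), and that call was lost without siControl replicate 2 with 10% FBS (-0.19, limma adjusted p = 0.0511).

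**Figure D5:**
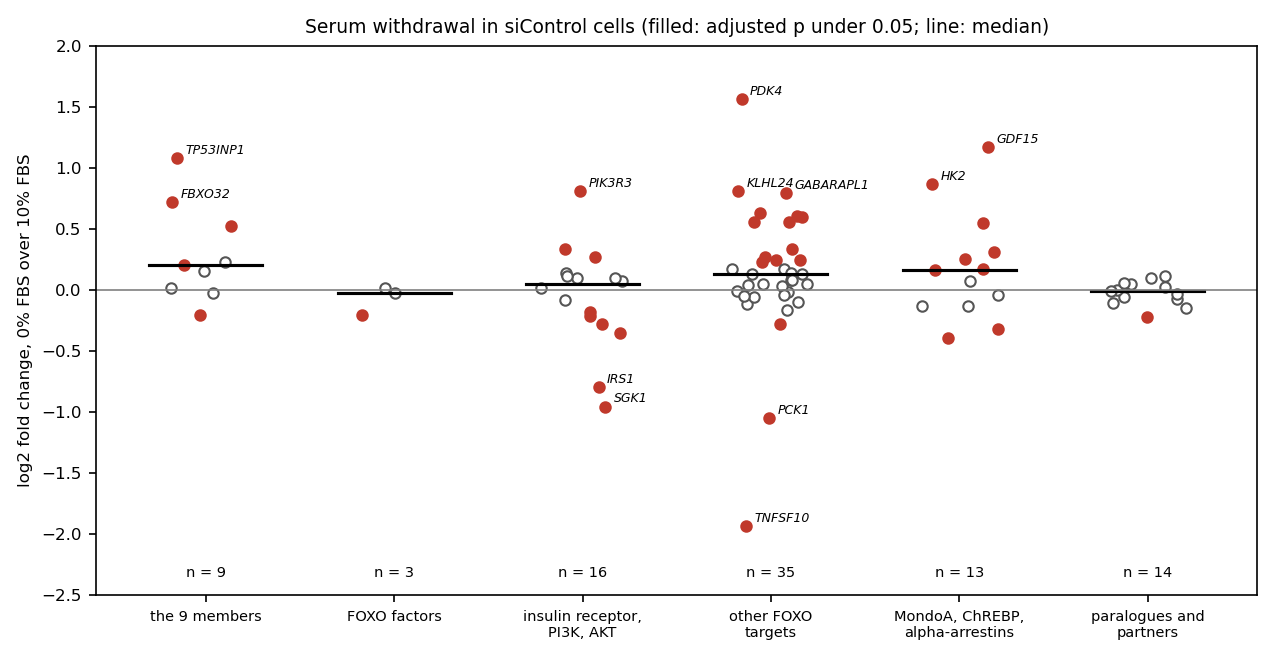
Log2 change on serum withdrawal in siControl cells (0% FBS over 10% FBS, vertical axis) of the 9 genes and of the measured genes of 5 pathway lists. Filled points passed the adjusted p threshold, black lines are medians; *PDK4*, *GDF15* and *TP53INP1* lie highest and *TNFSF10* lowest, so called genes stand on both sides of 0.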

How the data were processed

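The authors deposited log2 signals, made by RMA, for 33252 features of 12 arrays (values 3.37 to 14.8). The library file and annotation version are not given in the sources used here. Features were named from GEO's platform annotation: 19460 carry 1 gene symbol, 1754 several and 12038 none. 0 columns were left unmapped. No authors' comparison columns were used.

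Each comparison was fitted to its 6 arrays, and the interaction to all 12, with lmFit and eBayes of limma 3.58.1 (R 4.3.3), after a test on simulated data. Adjusted p-values cover all features with 1 symbol. The sample titles number the replicates 1 to 3, and the study's text reports triplicates without saying how they were separated. The members and lists were chosen with earlier results of these data known. Named genes are the 9 members, *LAPTM4B*, up to 3 called, non-overlapping genes per list, direction and comparison with the largest change, and the 5 genes most correlated with *TXNIP*. *ARRDC1*, *ARRDC2*, *ARRDC3*, *FOXO3* and *FOXO4* were named after their values were seen. The array numbers limit precision.

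Same-numbered siControl arrays correlated between media in their deviations from group means (0.37, 0.13 and 0.20). Between siLAPTM4B media these correlations were 0.32, 0.13 and -0.17, for knockdown without serum 0.39, 0.069 and 0.18, and with serum 0.37, 0.15 and -0.079. Arrays of unlike number were not compared, so whether the numbers pair arrays was not tested. The main fits use no pairing. Alternatives were other feature sets, priors, thresholds, median centring, the methods' t-test (Student's), one 12-array fit, the replicate block, and leaving out each array. Promoter sequences are from RefSeq, GRCh38.p14.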

Additional observations from a re-analysis of the deposited data

Results flagged for a closer look

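The knockdown effect differed between the media by an interaction test for 2 of the named genes. For *LAPTM4B* the log2 knockdown change was smaller in size without serum (-1.42) than with 10% FBS (-1.75), a difference of 0.33 (SE 0.06, limma adjusted p = 0.0345). This call was lost when all features were tested (limma adjusted p = 0.0947), with arrays centred on their medians (0.0792) and when any single array was left out (0.0522 to 0.103). For *TNFSF10* the difference was 0.93 (SE 0.12, limma adjusted p = 0.00829), with a knockdown change of -0.16 (SE 0.06, not called) without serum and -1.09 with 10% FBS. Both groups without serum, at 5.51 in siLAPTM4B and 5.67 in siControl cells, lay under the lower quartile of feature means (6.87), and the part of this low signal in the difference was not tested. No group of 3 arrays was screened for single outlying arrays.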

How the results depend on the processing

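On serum withdrawal the number of members called was 4 to 5 in siLAPTM4B cells (4 as reported) and 4 to 6 in siControl cells (5 as reported). With the replicate block it was 5 in each. Features called ran from 2713 to 4924 in siLAPTM4B cells (4027 as reported) and from 3632 to 5907 in siControl cells (5064 as reported). *FOXO1* passed in siLAPTM4B cells under the replicate block (limma adjusted p = 0.0397), with dim features left out (0.0463), with an intensity trend and robust prior (0.0120) and in a fit of all 12 arrays (0.0179).

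For knockdown without serum, 1 member was called. It was 0 with all features, with arrays centred on their medians, by the adjusted Student's t-test, in a fit of all 12 arrays and over every left-out array (0 to 0), and 2 with dim features left out, with the intensity trend and robust prior, at an unadjusted p under 0.01 and with the replicate block. The replicate block brought in *FBXO32* (limma adjusted p = 0.0356). Features called numbered 454, against 134 with all features, 1126 with the trend, 1291 and 1041 at an unadjusted p by limma and by the t-test, 27 by the adjusted t-test and 687 in the 12-array fit. Without one array they were 118 to 290.

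For knockdown with 10% FBS, 2 members were called, 1 with all features, 1 by the adjusted t-test, and 0 to 2 without one array. Features called numbered 793, against 279 with all features, 1686 with the trend, 1574 and 1300 at an unadjusted p by limma and by the t-test, 177 by the adjusted t-test, 1370 in the 12-array fit and 228 to 482 without one array. The interaction had 51 features, 17 with all features, 79 with dim features left out, 163 with the trend, 682 at an unadjusted limma p, 84 with the replicate block, and no member in any setting. The cause of these shifts was not tested.

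Sign changes numbered 28, all of members not called in that comparison and all but 1 on leaving out an array. For the interaction this count covers only *TXNIP*, *TP53INP1*, *FBXO32* and *BCL6*. *TXNIP* in the interaction was -0.021 with arrays centred and -0.12 to 0.093 without one array, and *TP53INP1* -0.023 to 0.14. Without one array, *ARRDC4* on withdrawal was -0.16 to 0.0050 in siLAPTM4B and -0.053 to 0.048 in siControl cells, and *CITED2* -0.026 to 0.085 and -0.088 to 0.019. For knockdown without serum, *TXNIP* was -0.072 to 0.14, *PIK3IP1* -0.080 to 0.089, *CCNG2* -0.081 to 0.0090 and *FOXO1* -0.038 to 0.017. With 10% FBS, *TXNIP* was -0.038 to 0.11, *PIK3IP1* -0.017 to 0.082 and *FOXO1* -0.084 to 0.00028. The second highest feature of a gene gave no value, since each member has 1 feature with 1 symbol. The 3 arrays per group limit precision, and *ARRDC4* and *PIK3IP1* lie under the lower quartile of feature means.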
